A study of Mus musculus with 8 samples.

Results

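The genes described here are 9 markers of striatal projection neurons whose expression is altered in models of Huntington's disease: Ppp1r1b, Pde10a, Rgs9, Drd2, Adora2a, Penk, Tac1, Arpp21 and Bcl11b. They were listed by name for their role in striatal neurons, with earlier results of these data known, and are 9 of the 22367 protein-coding genes of the GENCODE vM1 annotation (mm9) on chromosomes 1 to 19, X and Y. Each gene was given a window from 20 kb upstream of its start site to 1 kb past its end. Every peak of huntingtin (HTT) chromatin immunoprecipitation (ChIP) that overlapped the window was counted. The 9 windows held 105 of the 172453 peaks of 4 libraries. The question was whether genes of striatal identity carry HTT peaks in cortex, and whether any peak recurs in 2 or more libraries.

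The tissue was cortex of male mice on a B6 background, with an age given as 4 months. The methods state 4 months as the age at injection, so by that text treated cortex came from older mice. Htt+/+ mice were compared with HttQ111/+ mice, which carry human HTT exon 1 with a lengthened CAG repeat in 1 of the 2 copies of the mouse Htt gene. Treated mice received 500 µg of a pan-huntingtin antisense oligonucleotide (ASO) into the cerebral ventricle of one side, and cortex of that side was taken 4 weeks later. Untreated mice received no injection, so the ASO and the injection cannot be told apart. All 4 libraries were made with the antibody EPR5526 against HTT, and they are named by genotype and treatment, as in Htt+/+ ASO or HttQ111/+ untreated. Each group was 1 library, pooled from 3 mice per the labels, so the spread among replicates is unknown and no test was made. The amount of HTT in the tissue was not analysed here, and the label of cortex cannot be checked from peaks.

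Spiny projection neurons make up most of the striatum and respond to dopamine and glutamate from other brain areas. One class sends axons directly to the output nuclei of the basal ganglia and makes substance P, and the other projects indirectly and makes enkephalin with the dopamine D2 receptor. Both classes share a set of signalling proteins that act on cyclic AMP and on G proteins, and loss of this gene programme is an early feature of mice that express mutant HTT. Several of them, such as Drd2 and Adora2a, are weakly expressed in cortex, whereas Bcl11b also marks deep-layer cortical projection neurons and Arpp21 is made in cortical neurons too.

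Peaks that recurred were defined as merged peaks with a q-value below 0.01 from at least 2 of the 4 libraries, overlapping by 1 base or more, and are called reproducible regions. There were 10493 of them in all and 9 in the windows of these genes. Printed here are 6 of the 9, to show what the recurring peaks look like as sequence: 3 from regions that overlap the Ppp1r1b window, 1 from Pde10a and 2 from Bcl11b. Each is 200 bases centred on the mean summit, read from the plus strand of mm9. Capitals mark 2 short motifs that were searched on both strands, GGGCGG (the GC box, with its reverse complement CCGCCC) and CAGCAG (a pair of CAG triplets, with CTGCTG). The first sequence, chr11:98189536-98189735, lies in the neighbouring gene Neurod2 at the edge of the Ppp1r1b window, with its centre outside the window. The next 2, chr11:98195522-98195721 and chr11:98199809-98200008, lie between Neurod2 and Ppp1r1b. The Pde10a sequence is chr17:8875506-8875705 in an intron. The Bcl11b sequences are chr12:109244375-109244574, upstream of the gene, and chr12:109154255-109154454, in its final coding exon.
Neurod2, at the Ppp1r1b window edge: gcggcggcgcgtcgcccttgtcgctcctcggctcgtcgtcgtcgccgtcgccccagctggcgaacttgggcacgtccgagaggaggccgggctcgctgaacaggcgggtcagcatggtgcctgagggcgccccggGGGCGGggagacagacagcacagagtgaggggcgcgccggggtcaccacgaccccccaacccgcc
Ppp1r1b window, 14.1 kb upstream: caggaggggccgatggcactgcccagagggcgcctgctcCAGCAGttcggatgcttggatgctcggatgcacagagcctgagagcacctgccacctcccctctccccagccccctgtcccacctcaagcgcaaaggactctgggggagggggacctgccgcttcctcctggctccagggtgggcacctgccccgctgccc
Ppp1r1b window, 9.81 kb upstream: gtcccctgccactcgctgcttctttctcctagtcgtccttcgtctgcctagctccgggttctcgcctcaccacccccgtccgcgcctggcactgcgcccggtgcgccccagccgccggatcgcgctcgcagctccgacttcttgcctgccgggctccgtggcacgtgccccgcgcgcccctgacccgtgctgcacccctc
Pde10a, intron: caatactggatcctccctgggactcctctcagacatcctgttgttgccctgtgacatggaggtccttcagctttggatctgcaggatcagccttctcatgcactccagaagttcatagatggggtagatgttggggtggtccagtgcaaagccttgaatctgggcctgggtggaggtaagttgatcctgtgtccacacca
Bcl11b, 2.66 kb upstream: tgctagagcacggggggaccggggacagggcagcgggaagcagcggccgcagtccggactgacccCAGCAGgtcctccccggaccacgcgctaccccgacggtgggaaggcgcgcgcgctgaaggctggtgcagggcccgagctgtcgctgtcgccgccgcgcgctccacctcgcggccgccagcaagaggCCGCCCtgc
Bcl11b, final coding exon: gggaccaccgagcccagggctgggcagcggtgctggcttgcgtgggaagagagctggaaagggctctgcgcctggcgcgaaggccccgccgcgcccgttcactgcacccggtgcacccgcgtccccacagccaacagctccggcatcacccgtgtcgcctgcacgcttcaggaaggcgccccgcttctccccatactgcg

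The sequences of the recurring regions were rich in G and C. The median G+C content of the 9 regions was 72.0% over 200 bases (range 53.0 to 76.0%), against a median of 58.5% over all 10493 reproducible regions. The median number of CpG dinucleotides was 22 (0 to 27) against 5. The Pde10a intron sequence was the one without a CpG. GGGCGG was found in 3 of the 9 regions (33.3%), against 20.3% of all reproducible regions at the same length and 35.7% of 32851 promoters of 300 bases (RefSeq, GRCm38.p6, chromosome 18 left out). CAGCAG was found in 3 of 9 (33.3% against 36.7%). The E-box CAGATG, of the kind that NEUROD factors bind, and the cyclic AMP response element core TGACGT were in 0 of 9, against 15% and 1.94% of all reproducible regions. These matches describe the letters in 200 bases and say nothing of which proteins were bound.

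As deposited, the 4 lists held between 40112 and 47473 peaks on these chromosomes, and the expected number in a window was its length times the peak density of the library. Reads were few: whole ChIP reads recovered from the fold enrichments and p-values gave 1.10 to 1.36 reads per kb, and 83.1% of all peaks rested on 2 to 4 reads at the summit. Of the 105 peaks in these windows, 74 (70.5%) rested on 2 to 4 reads and 31 on 5 or more. Counting intervals below are exact 95% Poisson intervals. They describe counting error alone, because nearby peaks and the reads under them depend on each other.

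All 9 genes had a peak in at least 1 library, as did 91.3% of all protein-coding genes. A peak was present for 7 of 9 genes in Htt+/+ untreated cortex, where 63.7% of all protein-coding genes had 1. In Htt+/+ ASO cortex it was 7 of 9 (background 61.0%), in HttQ111/+ untreated cortex 7 of 9 (67.1%) and in HttQ111/+ ASO cortex 8 of 9 (55.1%). The median window of the 9 genes measured 88.6 kb and that of all genes 36.4 kb, and a longer window holds more peaks by its length alone. Ppp1r1b, Pde10a, Rgs9, Drd2, Adora2a and Bcl11b had a peak in all 4 libraries, 6 of 9 against 26.8% of all genes.

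With the length taken into account and all deposited peaks counted, the counting intervals of the list contained the value of all protein-coding genes. Among peaks with 5 or more reads this failed in Htt+/+ ASO cortex, at 3.66 (1.95 to 6.25) against 1.89 for all genes. The values that follow are for all deposited peaks. The 9 windows together held 31 peaks against 18.9 expected in Htt+/+ untreated cortex, a ratio of 1.64 (1.12 to 2.33). In Htt+/+ cortex with ASO, from other mice, there were 25 peaks, a ratio of 1.43 (0.928 to 2.12). For HttQ111/+ cortex it was 1.38 (0.916 to 1.99) from 28 peaks without ASO, and 1.22 (0.757 to 1.87) from 21 peaks with it. Over all protein-coding windows the ratio of the 4 libraries was 1.27, 1.21, 1.34 and 1.09, inside the interval of the 9 genes in every library. Against the peak density within gene windows in place of the whole genome, the 9 genes gave 1.29, 1.19, 1.03 and 1.12. The median gene of the list had a ratio of 1.51 over the 4 libraries, and the median protein-coding gene 1.30.

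**Figure D1:**
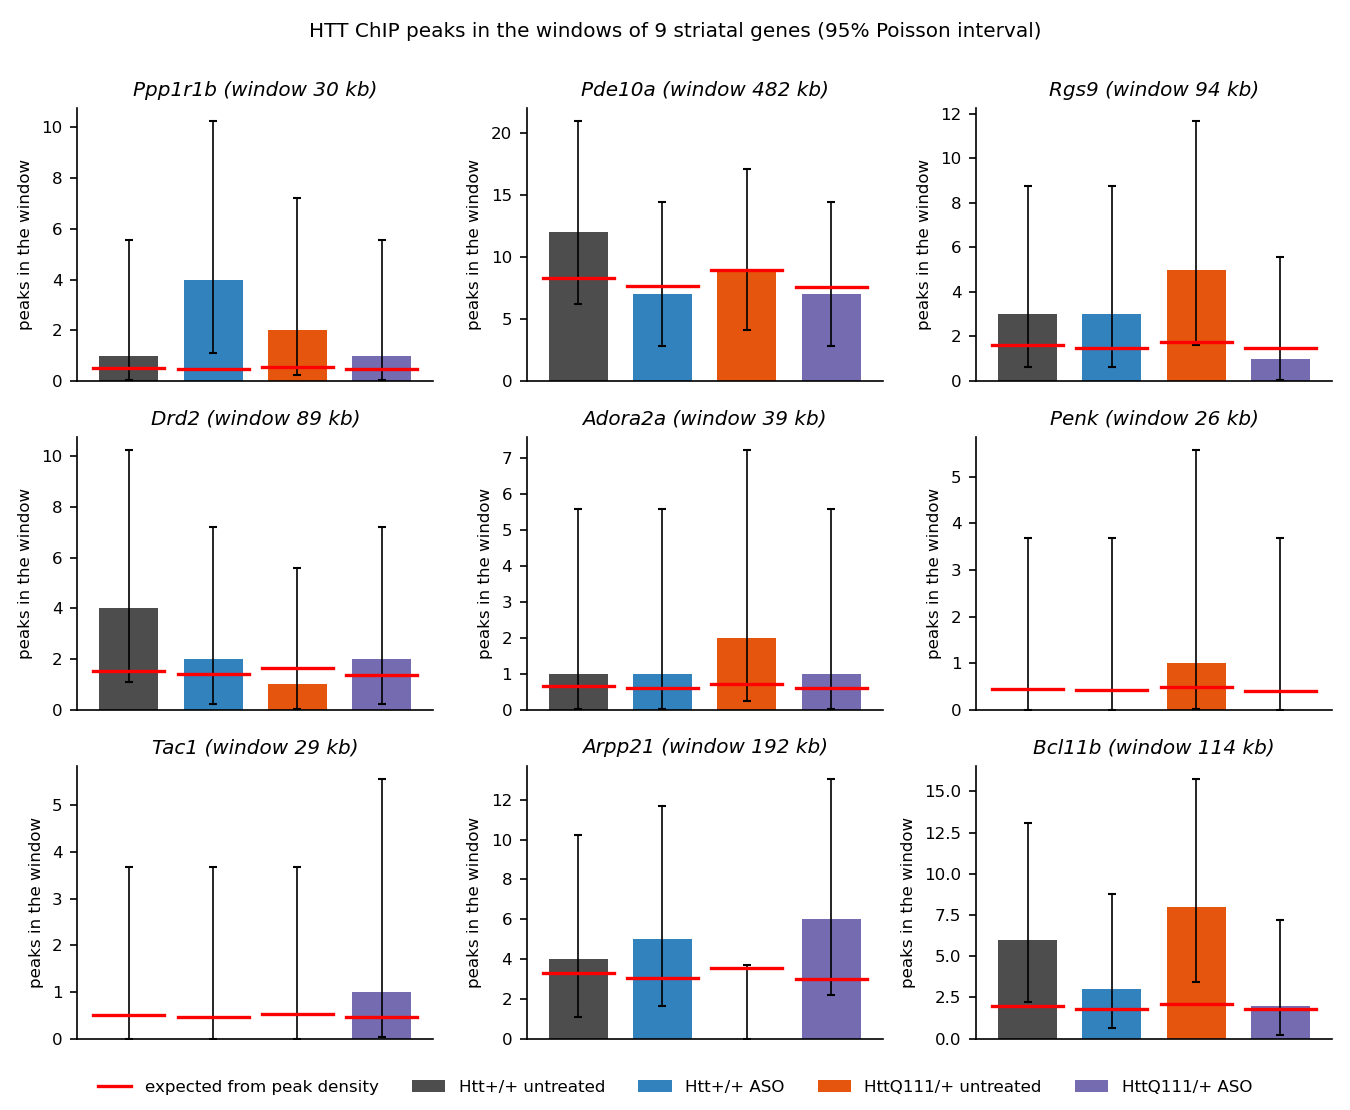
Number of HTT ChIP peaks in the window of each gene (bars, 1 library each, with the exact 95% Poisson interval) and the number expected from the peak density of that library (red lines). The interval lies above the red line for Ppp1r1b in Htt+/+ ASO and for Bcl11b in both untreated libraries, and contains it in the other bars.

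Signal transduction proteins that many projection neurons share come first. Ppp1r1b encodes DARPP-32, an inhibitor of protein phosphatase 1 that relays dopamine signals, and occupies chr11:98209718-98219110. Its window of 30.4 kb held 1 peak without and 4 with ASO in Htt+/+ cortex, and 2 without and 1 with ASO in HttQ111/+ cortex, where 0.476 to 0.564 were expected. The Htt+/+ ASO library stood highest, and its interval of 1.09 to 10.2 lay above the expected 0.484, while the intervals of the other libraries contained their expected number. Over the 4 libraries the 8 peaks were 3.91 times the expected number (1.69 to 7.69), a ratio reached by 3.62% of all protein-coding genes. All 8 peaks had 6 to 10 reads at the summit and a fold enrichment of 2.60 to 4.17. All 8 also fell in the window of the neighbouring gene Neurod2. The body of Ppp1r1b alone held 0 peaks without and 1 with ASO in Htt+/+ cortex, and 1 without and 0 with ASO in HttQ111/+ cortex.

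Pde10a, a phosphodiesterase that degrades cyclic AMP and cyclic GMP in projection neurons, spans 461 kb on chromosome 17 and had the longest window of the 9. In Htt+/+ cortex it held 12 peaks without and 7 with ASO, and in HttQ111/+ cortex 9 without and 7 with ASO. Expected were 8.32, 7.68, 8.95 and 7.56, so the 35 peaks were 1.08 times the expected number (0.750 to 1.5). No library departed from its density by more than counting error, and 5 of the 35 peaks had 5 or more reads. Rgs9, on chromosome 11, speeds the GTPase of G proteins downstream of dopamine and opioid receptors. Its window held 3 peaks in each Htt+/+ library, 5 in HttQ111/+ cortex without ASO and 1 with it. Expected were 1.62 and 1.49, then 1.74 and 1.47, and the sum was 1.90 times the expected number (0.981 to 3.32). Of these 12 peaks, 11 had 4 reads or fewer, and the one with 5 lay 0.248 kb inside the end of the gene in HttQ111/+ untreated cortex. Arpp21, a phosphoprotein regulated by cyclic AMP that binds calmodulin and RNA, lies on chromosome 9. In Htt+/+ cortex it held 4 peaks without and 5 with ASO, and in HttQ111/+ cortex 6 with ASO but 0 without, where 3.56 were expected and a count of 0 allows up to 3.69. Its sum was 1.16 times the expected number (0.649 to 1.91).

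Receptors and neuropeptide precursors of the indirect and direct classes ranged from 1 to 9 peaks over the 4 libraries. Drd2, the dopamine D2 receptor on chromosome 9, held 4 peaks without and 2 with ASO in Htt+/+ cortex, and 1 without and 2 with ASO in HttQ111/+ cortex. Expected were 1.53, 1.41, 1.64 and 1.39, and the ratio over the libraries was 1.51 (0.689 to 2.86). Adora2a, an adenosine receptor of the indirect class on chromosome 10, held 2 peaks in HttQ111/+ untreated cortex and 1 in each other library, against 0.609 to 0.721 expected, a ratio of 1.91 (0.620 to 4.46). Its peak with the most reads lay 0.448 kb past the start in HttQ111/+ untreated cortex, with 9 reads and a fold enrichment of 5.12. Penk, the precursor of enkephalin on chromosome 4, had 1 peak in all, in HttQ111/+ untreated cortex, 9.81 kb upstream with 5 reads and a fold enrichment of 8.54, the highest of the 105. Tac1, the precursor of substance P on chromosome 6, had 1 peak in all, in HttQ111/+ ASO cortex, 11.4 kb upstream with 2 reads. Its q-value was above 0.01. Expected over the 4 libraries were 1.77 peaks for Penk and 1.95 for Tac1, and neither gene had a peak in its body. The Penk peak and 1 upstream peak of Adora2a lay within other annotated genes.

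Bcl11b encodes CTIP2, a zinc-finger transcription factor needed for the maturation of striatal projection neurons, and occupies chr12:109148613-109241812 on the minus strand. In Htt+/+ cortex it held 6 peaks without and 3 with ASO, against 1.97 and 1.82 expected. In HttQ111/+ cortex it held 8 without and 2 with ASO, against 2.12 and 1.79 expected. Both untreated libraries were higher than both ASO libraries, and their intervals (2.2 to 13.1 and 3.45 to 15.8) lay above the expected number. Over the libraries the ratio was 2.47 (1.49 to 3.85), a value reached by 17.1% of all genes. Of the 19 peaks, 11 had 5 or more reads. Together the windows of Ppp1r1b and Bcl11b held 19 of the 31 peaks with 5 or more reads in the list.

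In order of the ratio over 4 libraries, Ppp1r1b was followed by Bcl11b, Adora2a, Rgs9, Drd2, Arpp21, Pde10a, Penk and Tac1. Each gene's counting interval overlapped that of the next in this order, and the intervals of Ppp1r1b and Bcl11b were the ones that did not reach 1. Ppp1r1b, Adora2a and Bcl11b had more peaks than expected in all 4 libraries, 3 of 9 against 14.4% of all genes. The genes whose 4 observed minus expected numbers lay closest to those of Ppp1r1b, by Euclidean distance over the 4 libraries, were Bnipl (0.0173), Mthfd2 (0.0852) and Masp1 (0.164). Bnipl had the same 1, 4, 2 and 1 peaks in a window of 30.9 kb and no reproducible region, against 4 for Ppp1r1b.

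**Figure D2:**
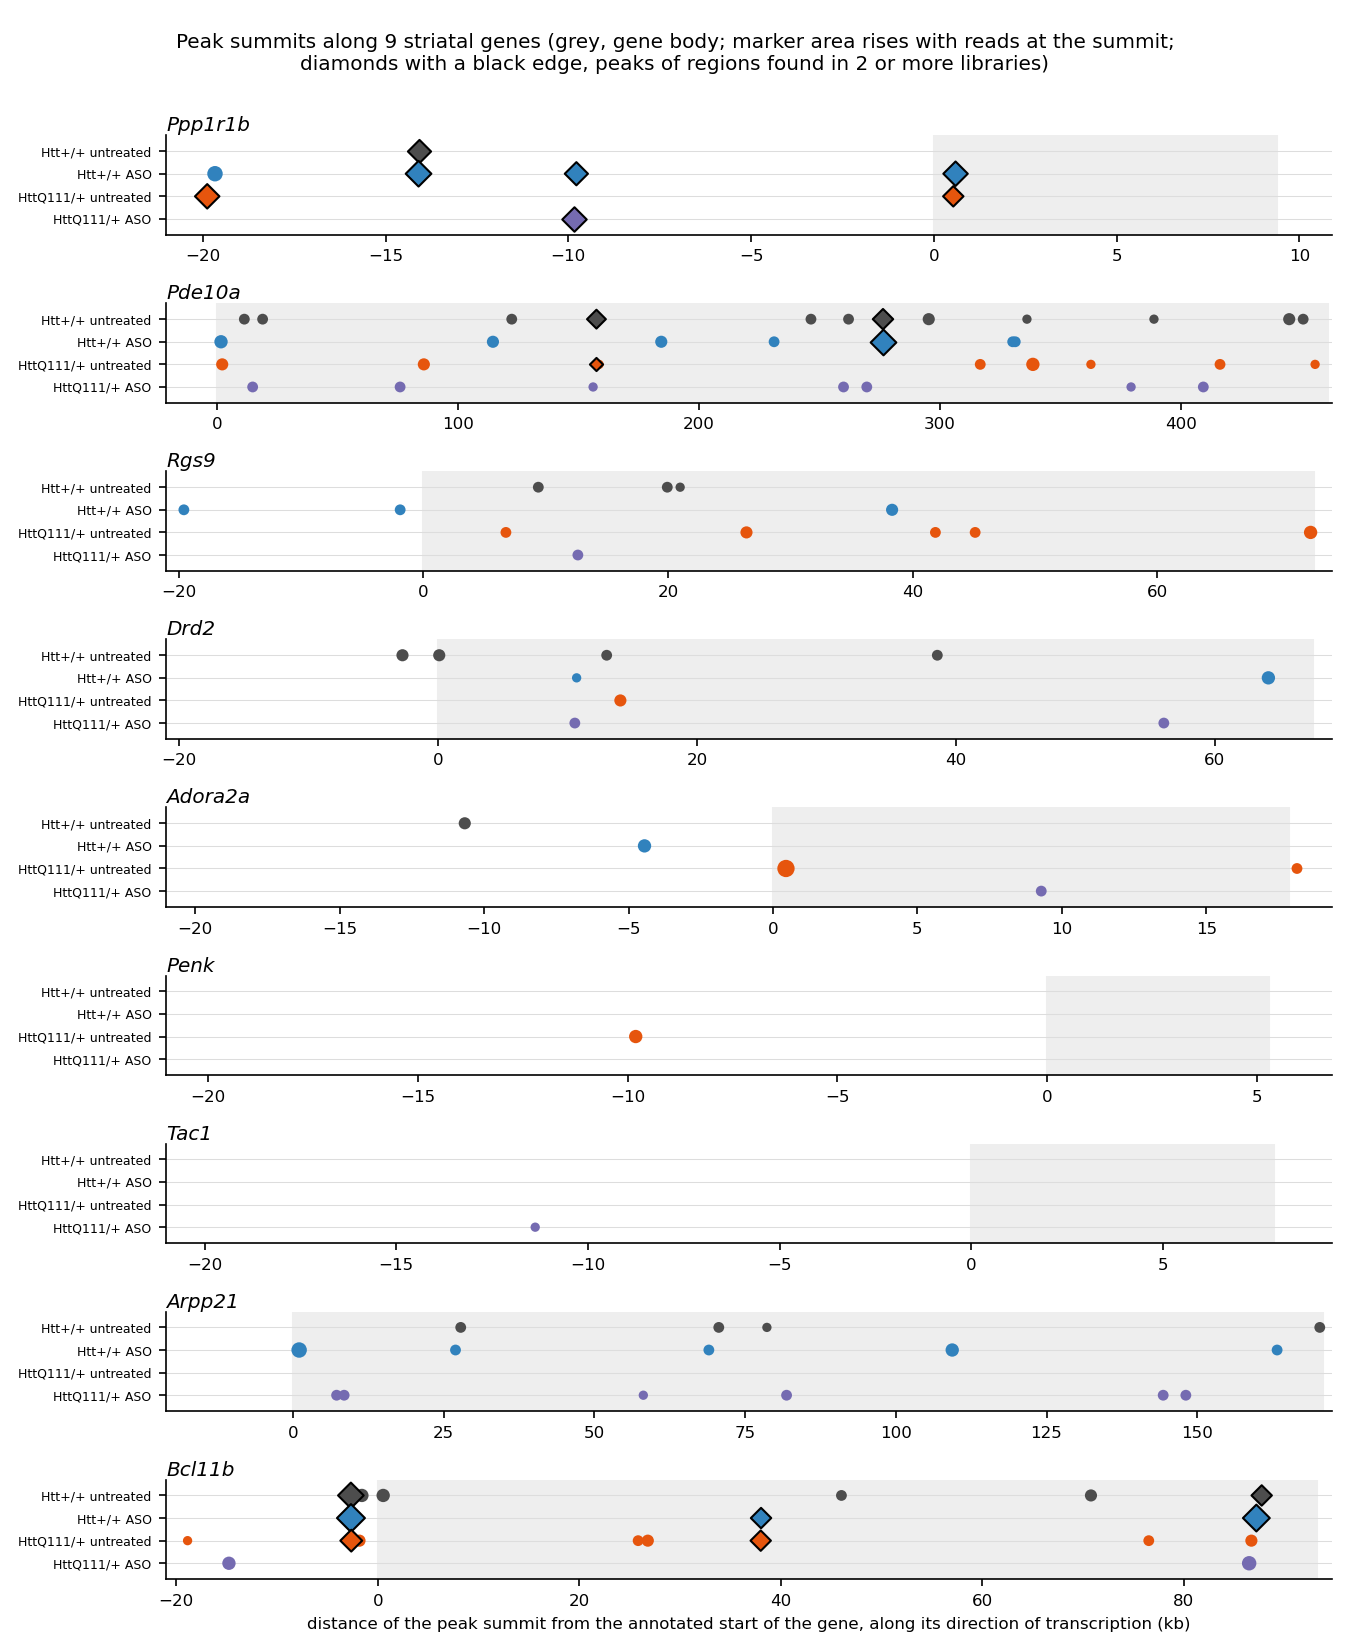
Distance of each peak summit from the start of the gene in kb, 1 row per library, with the gene body in grey, marker area rising with the reads at the summit, and diamonds for the 18 peaks that belong to reproducible regions. Pde10a and Arpp21 peaks are spread along the gene, and Ppp1r1b peaks lie upstream and at the start. Bcl11b peaks are spread along the window, with 1 group about 2.66 kb upstream and another in the final exon.

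By summit, 67 of the 105 peaks lay in introns, 20 upstream, 10 in untranslated parts of exons, 6 in coding sequence, 1 in an exon of a transcript without a coding annotation and 1 past a gene end. The 84 summits in gene bodies were spread along them, with 30 in the first part, 28 in the middle and 26 in the last part when each gene was cut into 3 equal parts. The upstream parts held 1.65 times the expected number of peaks over the 4 libraries (1.01 to 2.55) and the gene bodies 1.38 times (1.10 to 1.70). Both intervals contained the ratio over all protein-coding genes, 1.39 upstream and 1.15 in the bodies. A summit within 1 kb of the start site was found for Ppp1r1b, Drd2, Adora2a and Bcl11b, 4 of 9 against 33.4% of all genes. At Drd2 it lay 0.086 kb past the start in Htt+/+ untreated cortex with 4 reads, and at Bcl11b 0.528 kb past the start in the same library with 5 reads. Within 1 kb of a gene end there were 3 peaks, 1 each for Rgs9, Adora2a and Arpp21, or 3 of 9 genes against 17.9% of all genes. All were on 5 reads or fewer, and each was in 1 library.

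Recurrence was limited to 3 of the 9 genes, a share close to the 31.1% of all protein-coding genes whose window held a reproducible region. Ppp1r1b held 4 regions, Bcl11b 3 and Pde10a 2, where 1 of the 4 reached into the Ppp1r1b window with the peak of 1 library, so that 3 recurred within it. Rgs9, Drd2, Adora2a, Penk, Tac1 and Arpp21 held 0. The 9 regions compare with 4.49 expected from the length of the windows, a ratio of 2.00, and the same ratio over all genes was 1.55. A window with 2 or more regions was found for the same 3 of 9 genes (background 7.71%), with 3 or more for 2 of 9 (1.94%) and with 4 or more for 1 of 9 (0.608%). These shares take no account of window length. From length alone, 1.98 regions were expected for Pde10a, which held 2, against 0.468 for Bcl11b and 0.125 for Ppp1r1b. With peaks of 2 or more libraries required in the window itself, 8 regions were left in the same 3 genes and none of the 9 had 4 or more (0.599% of all genes). Of the 105 peaks, 18 (17.1%) belonged to a region, against 13.4% of all peaks. The number depended on the libraries: 3 regions were left without Htt+/+ ASO, 5 without Htt+/+ untreated, 5 without HttQ111/+ untreated and 8 without HttQ111/+ ASO. Without Htt+/+ untreated both regions of Pde10a were lost, Ppp1r1b had 3 and Bcl11b 2. The HttQ111/+ ASO library took part in 1 of the 9.

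The 4 regions of Ppp1r1b lay mostly nearer to another gene. The first, at the window's upstream edge, chr11:98189240-98189870, had 153 of its 631 bases inside the window, 1 of its 3 peaks (HttQ111/+ untreated) overlapping the window, and its mean summit in the coding exon of Neurod2, a basic helix-loop-helix factor of cortical excitatory neurons that is transcribed away from Ppp1r1b. It was called in 3 libraries, with a fold enrichment of 5.06 on 11 reads without and 4.23 on 10 reads with ASO in Htt+/+ cortex, and 3.41 on 9 reads without ASO in HttQ111/+ cortex. The next, chr11:98195372-98195819, had its middle 4.63 kb upstream of the start of Neurod2 and 14.1 kb upstream of that of Ppp1r1b. Its fold enrichments were 3.35 on 8 reads in Htt+/+ untreated and 3.84 on 10 reads in Htt+/+ ASO cortex, and the summits of both libraries were 3 bp apart. The third, chr11:98199724-98200120, lay 8.96 kb from the start of Neurod2 and 9.80 kb from that of Ppp1r1b. It was the one region shared by both ASO libraries, with 4.13 on 8 reads in Htt+/+ and 4.17 on 9 reads in HttQ111/+ cortex, and neither untreated library had a peak in it.

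The fourth region, chr11:98210028-98210471, was the one inside Ppp1r1b, 0.563 kb past its annotated start in the first exon. It had a fold enrichment of 3.09 on 9 reads in Htt+/+ ASO and 2.60 on 6 reads in HttQ111/+ untreated cortex, the lowest pair of the 9 regions. It made Ppp1r1b the 1 gene of 9 with a reproducible region within 1 kb of its start (background 10.4%). The gene body beyond it, to 1 kb past the end, held 0 peaks in all 4 libraries. Neurod2 itself held 2, 5, 3 and 1 peaks in its window of 25.2 kb against 1.70 expected over the libraries, a ratio of 6.47. Its window overlaps that of Ppp1r1b, and the peaks of the shared stretch are counted for both genes.

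Bcl11b had a region 2.66 kb upstream of its start, chr12:109244353-109244610, that was called in 3 libraries. The fold enrichments were 5.55 on 10 reads without and 7.34 on 12 reads with ASO in Htt+/+ cortex, and 4.82 on 7 reads without ASO in HttQ111/+ cortex, with summits within 37 bp. No peak was listed there in HttQ111/+ ASO cortex. Counting the region in Neurod2, 2 of 9 genes had a region of 3 or more libraries that overlapped the window (background 7.69%). With the peaks of the 3 libraries required in the window itself it was Bcl11b alone, 1 of 9 (7.64% of all genes). A second region, chr12:109203673-109203979, lay 38.0 kb into the gene with its mean summit in an intron and its edge in a coding exon. It had 6.25 on 6 reads in Htt+/+ ASO and 6.94 on 6 reads in HttQ111/+ untreated cortex.

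The third region of Bcl11b, chr12:109153888-109154974, lay in the final coding exon, 87.5 kb past the start. It had 5.09 on 6 reads in Htt+/+ untreated and 5.62 on 11 reads in Htt+/+ ASO cortex. In the same exon HttQ111/+ untreated cortex had a peak of 2.73 on 4 reads, and HttQ111/+ ASO cortex had one of 2.43 on 6 reads, the lowest fold enrichment of the 105. Neither overlapped the region. With all deposited peaks joined across gaps of up to 500 bp this exon held a peak of every library, and Bcl11b was the 1 gene of 9 with such a region of 4 libraries (background 1.74%). With q below 0.01 and the same joining, 0 of 9 genes had a region of 4 libraries (background 1.38%) and 3 of 9 had one of 2 or more (36.0%).

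Pde10a had 2 regions in 482 kb. One, chr17:8994583-8994917, lay 276 kb into the gene, with its mean summit 55.5 bp past an annotated internal transcript start. It had 2.92 on 6 reads in Htt+/+ untreated and 5.61 on 10 reads in Htt+/+ ASO cortex. The other, chr17:8875388-8875891, lay 157 kb into the gene in an intron, and its 2 peaks shared 37 bases. It had 7.97 on 5 reads in Htt+/+ untreated and 4.23 on 2 reads in HttQ111/+ untreated cortex, and it was lost when each peak was required to have 5 reads, when the overlap had to cover 50% of both peaks, or when summits had to lie within 250 bp. At a q-value below 0.001 both regions of Pde10a were lost, which left 2 of 9 genes with a region (24.6% of all genes). When all deposited peaks were used in place of those with q below 0.01, a region was added 10.6 kb into Drd2 (2 reads in Htt+/+ ASO and 3 reads in HttQ111/+ ASO cortex) and another 1.70 kb upstream of Bcl11b, and 4 of 9 genes held a region (background 36.8%).

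**Figure D3:**
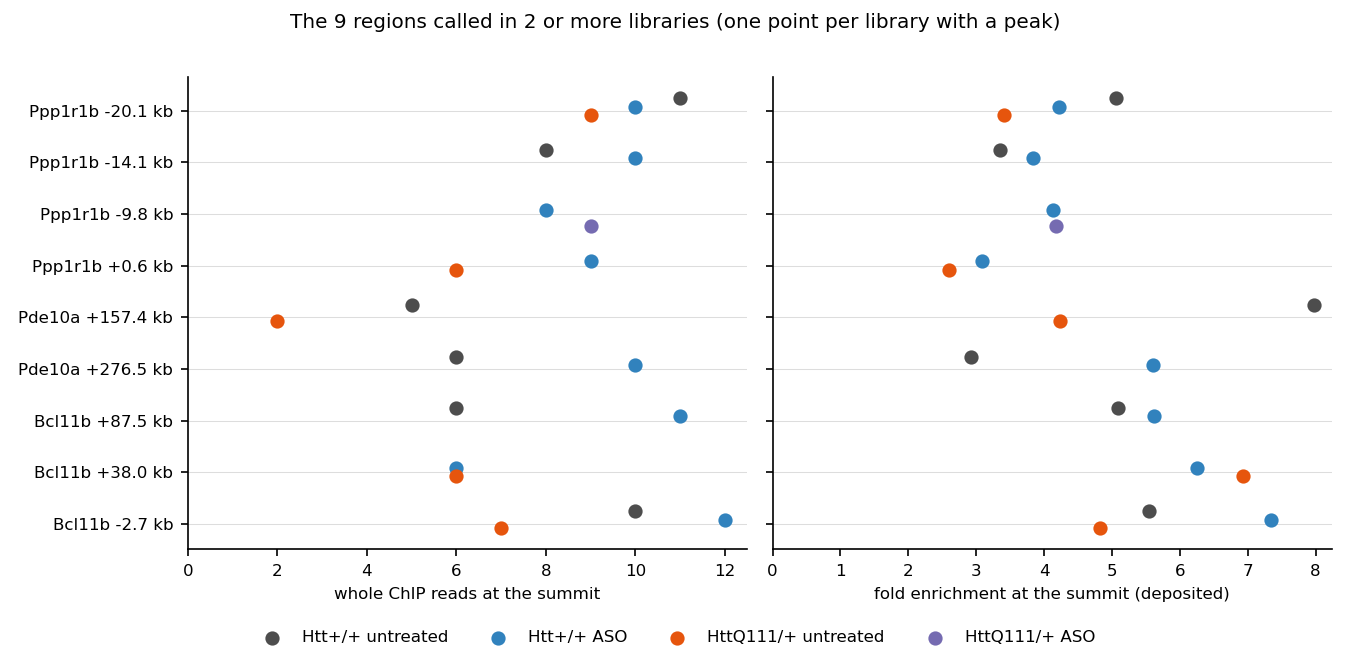
Whole ChIP reads (left) and deposited fold enrichment (right) at the summit for each library with a peak in the 9 reproducible regions, labelled by gene and distance of the mean summit from the gene start. Reads run from 2 to 12 and fold enrichments from 2.60 to 7.97, and HttQ111/+ ASO appears once.

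The recurring peaks had more reads on a higher local background. Their median was 8 reads at the summit against 3 for the 87 peaks outside regions, and 17 of the 18 had 5 or more reads against 14 of the 87. The local input background, relative to the genome-wide one, had a median of 5.75 in the recurring peaks and 1.29 in the others. The median fold enrichment was 4.53 and 4.76. The highest background of a region had a median of 6.15 over the 9 regions (1.38 to 10.5) and 1.92 over all 10493, and the highest reads 10 against 5. The input background is made from the merged inputs of all 4 groups, and a peak on a higher background needs more reads to reach the same p-value. The part of the input background and of G+C content in the recurrence was not tested.

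**Figure D4:**
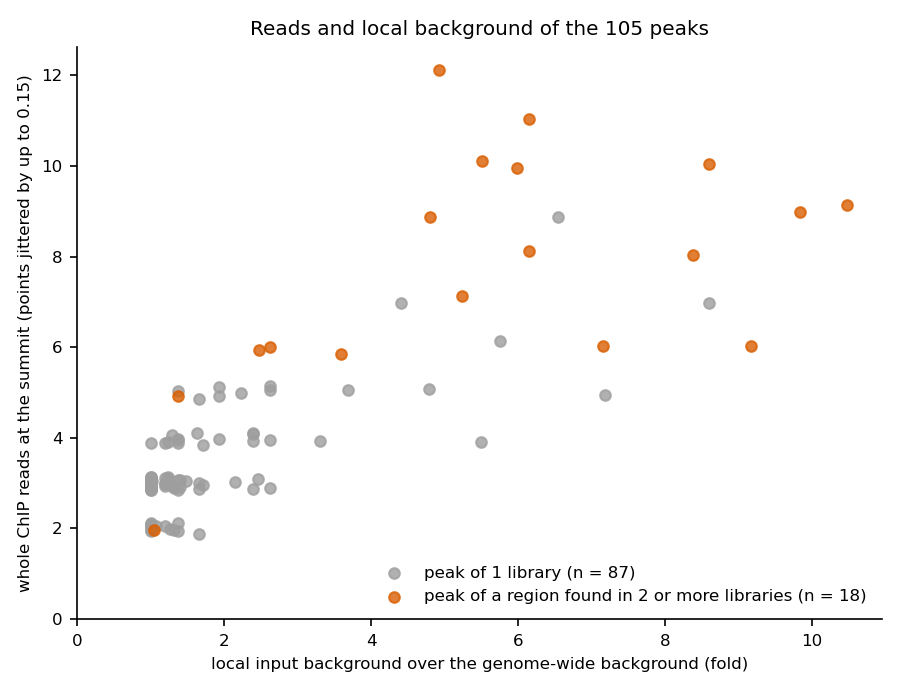
Whole ChIP reads at the summit against the local input background, as a multiple of the genome-wide background, for the 105 peaks. Peaks of reproducible regions (orange, n = 18) lie at 5 or more reads with the exception of 1 Pde10a peak on 2 reads, and mostly at a background over 2 times the genome-wide one.

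The comparison of treatments asked whether the peaks of these genes were fewer where HTT was targeted. Over the 9 windows the ratio of ASO to untreated peaks in Htt+/+ cortex was 0.806, with a Wilson-based 95% interval for counting error of 0.479 to 1.36, and that in HttQ111/+ cortex was 0.750 (0.429 to 1.31). The same ratio over the whole libraries was 0.923 and 0.845, inside both intervals. Pde10a and Bcl11b had fewer peaks with ASO in both genotypes, 2 of 9 against 17.8% of all genes, and Arpp21 had more in both, 1 of 9 against 7.60%. Among peaks with 5 or more reads, none of these genes kept its direction in both genotypes. Bcl11b then had 4 without and 3 with ASO in Htt+/+ cortex and 2 in each HttQ111/+ library. Pde10a had 2 in each Htt+/+ library, and 1 without and 0 with ASO in HttQ111/+ cortex. Arpp21 had 0 without and 2 with ASO in Htt+/+ cortex and 0 in each HttQ111/+ library. Counting the peaks with 5 or more reads turned the direction in Htt+/+ cortex, where 13 were found with ASO and 7 without, a ratio of 1.86 (0.763 to 4.52). In HttQ111/+ cortex 3 were found with ASO and 8 without, a ratio of 0.375 (0.108 to 1.30). The whole libraries moved the same way for such peaks, with ratios of 1.24 and 0.569. The recovered depth differed too, at 1.22 and 1.36 reads per kb in the ASO libraries against 1.12 and 1.10 in the untreated ones, and its part in these ratios was not tested. For each genotype the interval of the ratio from all peaks covers both no change and a fall by more than 50%.

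The comparison of genotypes gave a ratio of HttQ111/+ to Htt+/+ peaks of 0.903 (0.545 to 1.5) in untreated and 0.84 (0.474 to 1.49) in ASO cortex, against 1.08 and 0.985 for the whole libraries. None of the 9 genes had fewer peaks in HttQ111/+ cortex in both treatments (background 10.4%), and none had more in both (10.3%). With ASO, 3 peaks with 5 or more reads in HttQ111/+ cortex compared with 13 in Htt+/+ cortex, a ratio of 0.231 (0.0706 to 0.755), against 0.614 for the whole libraries, a value inside that interval.

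**Figure D5:**
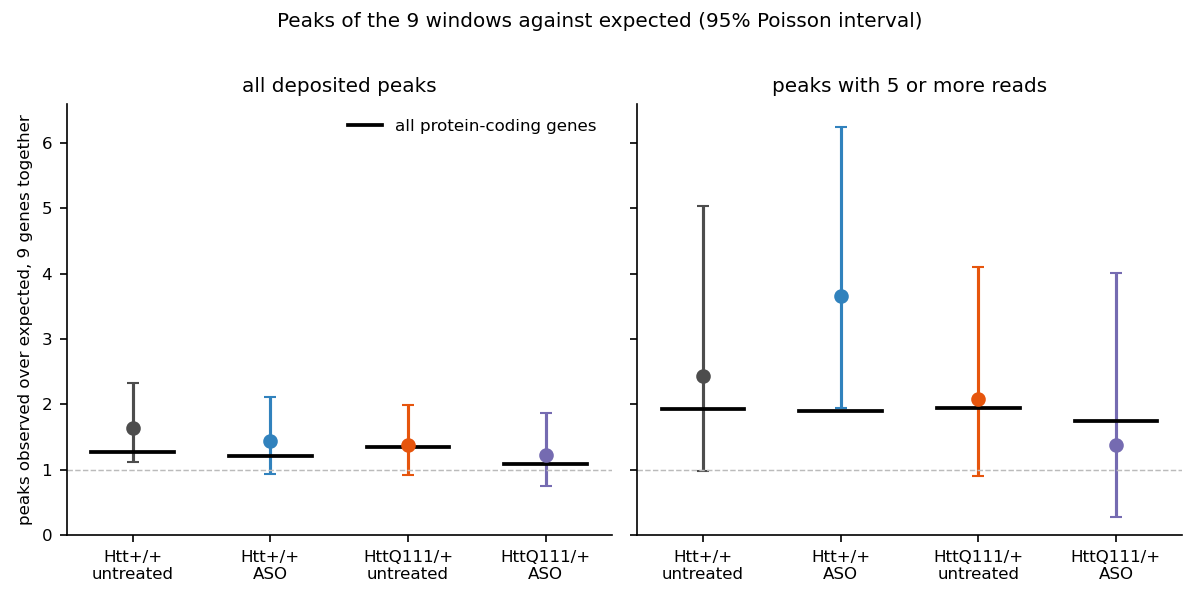
Peaks observed over expected for the 9 windows together in each library (points, exact 95% Poisson interval), with the same ratio over all protein-coding genes (black lines), for all deposited peaks (left) and for peaks with 5 or more reads (right). The black line lies within the interval in each panel and library, except for peaks with 5 or more reads in Htt+/+ ASO cortex, where the 9 genes had 3.66 (1.95 to 6.25) and all genes 1.89.

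Other marker lists give the setting for these values. Of 31 further genes of striatal identity, 12 (38.7%) held a reproducible region and the peaks were 1.09 times the expected number. For 22 genes of cortical excitatory neurons these were 11 of 22 and 0.967, for 8 interneuron genes 2 of 8 and 1.27, and for 16 glial genes 5 of 16 and 1.63. Among the 9 genes described here the share was 33.3%, inside the range of the other lists, and the peaks were 1.42 times the expected number. By the median gene in place of the sum, the ratio of peaks was 1.51 for the 9 genes and 1.19 for the further striatal genes. It was 1.58 for cortical excitatory, 0.867 for interneuron and 1.53 for glial genes. The 9 regions of the genes described here were 2.00 times the number expected from window length. This was above the 0.924 to 1.37 of the other lists and the 1.55 of all genes. These ratios were not tested, and that of the 9 genes rests on 9 regions in 3 windows. The 4 regions of Ppp1r1b are also the 4 of Neurod2, so the cortical excitatory list counts them too. The mean summit of 1 of these 4 lies outside the Ppp1r1b window. The members of those lists with the highest ratio among those with 2 or more regions were Neurod2, Sp9 and Ptpn5. Sp9, a zinc-finger factor of developing striatal neurons, had 9 peaks (2 regions, ratio 3.95), and Ptpn5, a striatum-enriched tyrosine phosphatase, had 12 (2 regions, ratio 2.32). Htt, the target of the ASO, had 14 peaks against 11.6 expected and 0 regions.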

How the data were processed

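HTT ChIP-seq of mouse cortex was available as 1 peak list for each of 4 libraries, and 4 input samples had no file used here. The methods describe reads aligned with HISAT2, ChIP libraries reduced to the size of the smallest, inputs merged into 1 control and peaks called with MACS2 scaled to that control. The depth recovered from the peaks was nevertheless unequal, from 1.10 reads per kb in HttQ111/+ untreated to 1.36 in HttQ111/+ ASO cortex. The deposited values are the fold enrichment at the summit (a ratio to background), the −log10 p-value and −log10 q-value, and an integer score made by the authors from the −log10 p-value. The labels name mm9 and the methods mm10. The lists were read as mm9 (NCBIM37, GENCODE vM1). No peak ran past the end of an mm9 chromosome, and the last peak of chromosome 2 ended at base 181748015 of 181748087. The labels give 3 mice per pool and the methods text fewer, so the pool size is uncertain.

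Whole reads per peak were recovered with 1 scaling factor per library, under which at least 99.98% of peaks matched the deposited −log10 p-value within 0.01. Expected peaks were window length times library peaks over the bases that are not N. The reads step and the counting step were tested on simulated data. Every gene of the list is described. Also named are Htt, a gene whose body holds a member's region, the 3 highest genes of the other lists with 2 or more regions, and the 3 genes most like Ppp1r1b in their 4 values. The members and all gene lists were chosen with earlier results of these data known. With 1 library per group no test was made. Alternatives were cuts on q and reads, summits, overlap rules, windows, densities and each library left out. ENCODE's blacklist was not used here. Software was matplotlib 3.10.9, pandas 2.3.3, numpy 2.4.6, pysam 0.24.0 and scipy 1.17.1 under Python 3.11.15.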

Additional observations from a re-analysis of the deposited data

Results flagged for a closer look

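Several genes had peak numbers that moved in opposite directions in the 2 genotypes or in the 2 treatments. Each is a difference between single libraries and was not tested. With ASO, Ppp1r1b had 3 more peaks in Htt+/+ and 1 fewer in HttQ111/+ cortex, so the change in HttQ111/+ minus that in Htt+/+ was -4. Drd2 had 2 fewer with ASO in Htt+/+ and 1 more in HttQ111/+ cortex, a difference of 3. Between genotypes, HttQ111/+ minus Htt+/+ was 1 without and -3 with ASO for Ppp1r1b, 2 and -2 for Rgs9, -4 and 1 for Arpp21, and 2 and -1 for Bcl11b, so the value with ASO minus that without was -4, -4, 5 and -3. The Rgs9 and Arpp21 peaks behind these values rest mostly on 2 to 5 reads, and those of Ppp1r1b on 6 to 10. The genotype difference of Ppp1r1b without ASO rests on the window edge, at the region in Neurod2. There the HttQ111/+ untreated peak (9 reads) reached into the window, while the Htt+/+ untreated peak (11 reads) ended outside it and was not counted. The change of sign for Ppp1r1b between treatments therefore depends on where the window was cut.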

How the results depend on the processing

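The alternatives kept 85 values over the list within counting error or within 1.5 times the reported number, and 15 moved further. Among values of single genes 235 were kept and 71 moved. A count of 0 that stayed 0 was taken as kept. Most settings for regions can only remove regions, so for genes without a region many kept values were fixed beforehand. Restricting to peaks with 5 or more reads moved the largest number of values. With them the observed to expected ratio in Htt+/+ cortex was 2.44 without and 3.66 with ASO and in HttQ111/+ untreated cortex 2.09, 3 genes had a peak in Htt+/+ untreated and 2 in HttQ111/+ ASO cortex, and the ratios were 1.86 (ASO to untreated, Htt+/+), 0.375 (ASO to untreated, HttQ111/+) and 0.231 (HttQ111/+ to Htt+/+, ASO). Within 20 kb either side of the start site the observed to expected ratio in Htt+/+ ASO was 2.27. Reproducible regions numbered 2 when 3 libraries were required, 5 in gene bodies alone and 5 within 20 kb of start sites, each of which takes fewer peaks or bases. Leaving out each library in turn gave 3 to 8 regions and 2 to 3 genes with a region. Leaving out Bcl11b, joining peaks across gaps and requiring the recurring peaks in the window itself were chosen after seeing the data. The labels carry no replicate numbers to pair libraries by. The ASO and untreated libraries pair within genotype, and their ratios were given side by side without a fit that has genotype as a block. The low reads limit every count here.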
